A study of Mus musculus with 14 samples.

Results

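The male animals of a study of Dnmt3a haploinsufficiency in mouse cortex are described here: 3 mice heterozygous for a knockout of Dnmt3a and 3 wild-type mice, 6 of the 14 animals sequenced. They were selected by the number that opens each title. The prefixes 046, 048 and 119 each named 1 wild-type and 1 heterozygous male, and these were compared as 3 pairs. What such a prefix stands for is not stated. All 6 mice were C57BL/6J males aged 8 weeks, and the tissue was labelled cortex. Both genotypes were littermates per the labels, and they differed, as far as the labels say, only in the 1 knockout allele. No label gives the exons that this allele lacks or tells which animals shared a litter. Total RNA was sequenced from every animal, and 8 females of prefixes 047, 139 and 141 (4 of each genotype) form the rest of the series. No label says whether animals of a genotype came from separate litters, so p-values measure only the spread between these libraries, which may be technical in part.

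Dnmt3a encodes an enzyme that adds new methyl groups to cytosine in DNA. In neurons it methylates cytosines in CpG and also outside CpG, mainly in the weeks after birth. Immediate early genes, which lead the results below, are transcribed within minutes of a stimulus without new protein synthesis, and in cortex their level is widely read as a sign of recent neuronal activity. Among them, Fos, Fosb and Junb encode subunits of the AP-1 transcription factor, and Egr and Nr4a genes encode other transcription factors.

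Gene-level read counts summed to 10219549 to 13739591 per male. The Y-linked gene Ddx3y had 652 to 960 counts in each of the 6 libraries and Xist had 7 to 26, as in male tissue. The 2 libraries of prefix 119 stood apart from the other 4 on the first principal component of log2 expression, which held 35.7% of the variance. Protein-coding transcripts of the mitochondrial genome took 1.51% and 1.11% of counts in the wild-type and the heterozygous animal of prefix 119, against 0.601% to 0.860% in the other 4 libraries. Values of the called genes and of the main lists are therefore given pair by pair. Levels are in CPM, read counts scaled to a common library size after a correction for composition. The order of values is always 046, 048, 119.

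The targeted gene was examined first. Dnmt3a stood at 165, 124 and 132 CPM in wild-type cortex and at 97.2, 101 and 84.4 CPM in heterozygous cortex. Each heterozygote lay below each wild-type animal. Means were 140 ± 21.5 CPM and 94.1 ± 8.51 CPM (SD, n = 3 each). Fitted over pairs, the heterozygous level amounted to 67.3% of the wild-type one (95% interval 59.8 to 75.8), a log2 fold change of -0.57 (SE 0.0841, adjusted p = 0.000658 by edgeR with the pair as a block). In edgeR without the pairing the value was -0.58, with an adjusted p of 0.99991. A two-sided exact permutation test gave p = 0.1 over the 20 splits of 3 against 3 and p = 0.25 over the 8 sign changes within pairs, and both are the smallest values these designs allow. Counts cover the whole gene, so reads from the knockout allele may be among them.

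The rest of the methylation machinery did not pass. Of 21 members tested (Dnmt3b, the sister enzyme, had too few reads), Dnmt3a alone was called, against 0.0574% of all 13946 genes tested, and 12 of 21 were positive (49.2% of all genes), with a median log2 fold change of 0.063 beside -0.0024 over all genes. Dnmt1, the maintenance methyltransferase, stood at 61.1, 51.0 and 49.1 CPM in wild type and 61.3, 51.2 and 52.2 CPM in heterozygotes, and its log2 fold change was 0.03 (SE 0.0824). Tet2, which oxidises methylcytosine, was higher in the heterozygote of each pair (differences of 0.16, 0.39 and 0.08 on the log2 scale), but its adjusted p by edgeR was 0.938. The same held for Gadd45b, a gene of active demethylation that is itself induced by activity, with a log2 fold change of 0.29 (adjusted p = 0.998 by edgeR).

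Across the 13946 genes, 8 differed by genotype at an adjusted p under 0.05 (edgeR's quasi-likelihood test with the pair as a block, Benjamini-Hochberg adjustment), which is 0.0574% of those tested. Fos, Junb, Fosb, Csrnp1 and Gpnmb rose (0.0359%), and Dnmt3a, mt-Nd6 and Aldh1a1 fell (0.0215%). At an unadjusted p under 0.05 there were 651 genes, 4.67%. The 2 groups of 3 did not overlap in 746 genes (5.35%), 335 higher (2.4%) and 411 lower (2.95%), and the 3 pairs shared a sign in 3442 genes (24.7%), 1682 higher (12.1%) and 1760 lower (12.6%). Dnmt3a was the only one of the 8 that edgeR also called without pair 048 and in a fit of all 14 animals, and no gene was called without the pairing, where 219 genes had an unadjusted p under 0.05. DESeq2 with the same block called Fos, Dnmt3a and Junb.

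**Figure D1:**
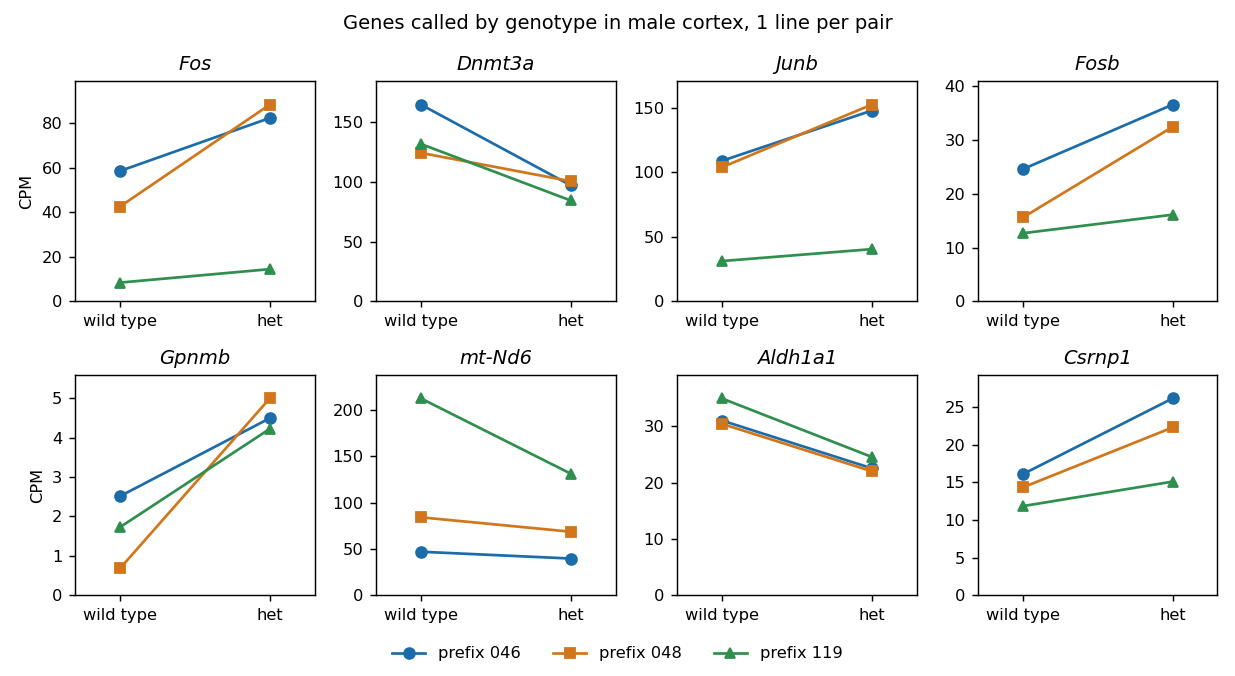
Level in CPM of the 8 called genes in wild-type (left) and heterozygous (right) male cortex, with 1 line per pair and each axis starting at 0. Every line keeps the direction of its gene, while for Fos and Junb the line of prefix 119 lies far below the other 2 (8.40 and 14.4 CPM for Fos).

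Immediate early genes were higher in heterozygous males, and 4 of the 5 genes that rose belong to this group. All 33 listed members were tested, and 31 had a positive log2 fold change, with a median of 0.32 beside -0.0024 over all genes. Of the 33, 4 were called upward and none downward, 19 had an unadjusted p under 0.05 upward (2.43% of all genes) and none downward (2.24%), and 21 were higher in the heterozygote of all 3 pairs (12.1% of all genes) with none lower in all 3. Only Egr3, Fosl2 and Nptx2 separated the groups without overlap (2.4% of all genes). The summed level of the list was 2864 CPM in the wild-type and 3500 CPM in the heterozygous animal of pair 046, 2392 and 3405 CPM in pair 048, and 1792 and 2033 CPM in pair 119. Pair 048 thus had the widest gap and pair 119 the narrowest, and the median differences were 0.30, 0.51 and 0.16. Without pair 048 the median was 0.24 and edgeR called no member, and without pair 119 it was 0.40 and edgeR called 14. How many of all genes each of these fits called is given below, with the dependence on processing.

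Among the called members, Fos, Fosb and Junb are AP-1 genes and Csrnp1 is not. Fos stood at 58.5, 42.6 and 8.40 CPM in wild type and at 82.3, 88.3 and 14.4 CPM in heterozygotes. Within each pair the heterozygote was the higher one, but both animals of prefix 119 lay below all others, so the groups overlapped. Fos rose by 0.77 in log2 units (SE 0.0999), with an adjusted p of 0.000166 by edgeR. Fosb had 24.6, 15.6 and 12.7 CPM in wild type and 36.6, 32.5 and 16.1 CPM in heterozygotes, where the heterozygote of prefix 119 lay among the wild-type values. It rose by 0.67 in log2 units with an SE of 0.117 (adjusted p = 0.00843 by edgeR). Junb had 109, 104 and 31.2 CPM in wild type against 148, 153 and 40.4 CPM in heterozygotes, a log2 fold change of 0.46 (SE 0.0798, adjusted p = 0.0068 by edgeR) with pair differences of 0.44, 0.55 and 0.37. Csrnp1, which encodes a nuclear protein induced by axin, had 16.1, 14.3 and 11.9 CPM against 26.2, 22.3 and 15.1 CPM, a log2 fold change of 0.57 (SE 0.117) with an adjusted p of 0.0405 by edgeR. Without pair 048 none of these passed: the log2 fold changes were 0.59 for Fos, 0.48 for Fosb, 0.41 for Junb and 0.54 for Csrnp1, with adjusted p by edgeR of 0.343, 0.999, 0.859 and 0.999. Csrnp1 did not pass without pair 046 either (0.50, adjusted p = 0.197 by edgeR). In the fit of all 14 animals their values were 0.77, 0.67, 0.47 and 0.58, with adjusted p by edgeR of 0.437, 0.970, 0.555 and 0.388.

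The promoters of Fos, Fosb and Junb, the AP-1 genes among the calls, are shown. They are the 250 bases before the transcription start in RefSeq (GRCm38.p6, a later build than the mm9 of the counts), written 5′ to 3′ on the gene's strand. Capitals mark TGACG, the core of the cAMP response element bound by CREB, on either strand. Fos lies at chr12:85473640-85473889 (plus strand), Fosb at chr7:19310046-19310295 (minus strand) and Junb at chr8:84978749-84978998 (minus strand).
Fos: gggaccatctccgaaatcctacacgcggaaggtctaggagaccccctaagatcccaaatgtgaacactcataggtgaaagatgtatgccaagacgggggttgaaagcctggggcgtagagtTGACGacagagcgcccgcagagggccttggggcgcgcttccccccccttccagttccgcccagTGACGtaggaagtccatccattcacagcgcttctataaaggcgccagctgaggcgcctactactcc
Fosb: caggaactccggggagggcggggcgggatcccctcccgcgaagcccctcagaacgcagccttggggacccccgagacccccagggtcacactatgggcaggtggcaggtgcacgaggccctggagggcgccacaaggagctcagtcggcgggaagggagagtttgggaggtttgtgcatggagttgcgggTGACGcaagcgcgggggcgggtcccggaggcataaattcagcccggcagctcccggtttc
Junb: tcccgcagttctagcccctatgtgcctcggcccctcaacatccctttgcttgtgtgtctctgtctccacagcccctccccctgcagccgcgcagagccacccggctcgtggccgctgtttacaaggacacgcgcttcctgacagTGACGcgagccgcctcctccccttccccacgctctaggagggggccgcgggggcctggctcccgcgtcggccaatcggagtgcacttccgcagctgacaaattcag

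TGACG occurs 2 times in the Fos window, the nearer match starting 66 bases before the start site, and 1 time each in the Fosb window (60 bases) and the Junb window (106 bases). None of the 3 windows holds the full palindrome TGACGTCA or the CArG box, the motif of serum response factor, on either strand. Bases further upstream were not searched. Among 32851 RefSeq promoters of the same length, 17.8% hold TGACG, 1.55% hold TGACGTCA, which contains TGACG, and 1.47% hold the CArG box. Of the 33 immediate early genes, 23 were found there by symbol, with 39 promoters among them. TGACG occurs in at least 1 listed promoter of 17 of these genes. This is a count per gene, so it cannot be set against the 17.8%, which is a share per promoter. These matches describe the letters of the windows and say nothing of binding in these animals.

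Further transcription factors and effectors of the list were positive without passing. Klf10, a zinc finger repressor gene, had 51.6, 51.0 and 30.1 CPM in wild type and 65.0, 63.5 and 45.6 CPM in heterozygotes, with a log2 fold change of 0.41 (adjusted p = 0.053 by edgeR). Dusp1, a phosphatase that switches off MAP kinases, had a log2 fold change of 0.37 (adjusted p = 0.163 by edgeR). Its pair differences were 0.41, 0.52 and 0.14. The synaptic effector Arc had 362, 292 and 151 CPM in wild type and 601, 576 and 170 CPM in heterozygotes, so pairs 046 and 048 differed by 0.73 and 0.98 and pair 119 by 0.16 on the log2 scale. Its log2 fold change of 0.63 did not pass (adjusted p = 0.593 by edgeR), and the nuclear receptor gene Nr4a1, with 121, 84.1 and 40.1 CPM against 197, 208 and 54.5 CPM, did not either (0.84, adjusted p = 0.404). Without pair 119, edgeR called both (0.86 for Arc and 1.00 for Nr4a1, adjusted p of 2.16e-06 and 0.000958). Egr1, Egr2 and Egr3, zinc finger transcription factors, had log2 fold changes of 0.30, 0.62 and 0.31 (adjusted p of 0.302, 0.254 and 0.302 by edgeR). Egr3 alone of them separated the groups, at 67.8 to 77.1 CPM in wild-type animals and 81.7 to 101 CPM in heterozygous ones. Without pair 046 edgeR called Egr1 (0.41) and Egr2 (0.89), and without pair 119 it called Egr3 (0.42).

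Not all members moved alike. Npas4, a transcription factor gene that responds to calcium entry in neurons, had 40.1, 44.2 and 7.20 CPM in wild type and 38.7, 38.7 and 11.4 CPM in heterozygotes, with a log2 fold change of 0.04. Here the heterozygote was the lower one in pairs 046 and 048. Sik1, a kinase gene, was higher in pairs 046 and 048 (0.78 and 1.16) and lower in pair 119 (-0.35), and edgeR called it without that pair (0.96). The 2 members with a negative value were Homer1, a postsynaptic scaffold gene (-0.07), and Pim1, a kinase gene (-0.26). Npas4, Sik1, Arc, Nr4a1, the Egr genes, Fosl2, Nptx2, Homer1 and Pim1 were chosen after their values were seen, as were Dnmt1 above and Adora2a below.

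Levels of these genes also followed the prefix. Both animals of prefix 119 lay below the other 4 in 21 of the 33 members, against 2304 of all 13946 genes. The levels of Fos in the wild-type animals ran from 8.40 to 58.5 CPM, a wider gap than any pair showed between genotypes. No source used here gives the time of tissue collection, and its part in these differences was not tested. Markers of the striatum, which lies beneath the cortex, took another order across pairs. Their summed level was higher in the heterozygote of pair 046 (1524 and 2199 CPM) and lower in that of pair 048 (2045 and 1180 CPM) and of pair 119 (1610 and 1412 CPM). Their part in the levels of the immediate early genes was not tested.

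**Figure D2:**
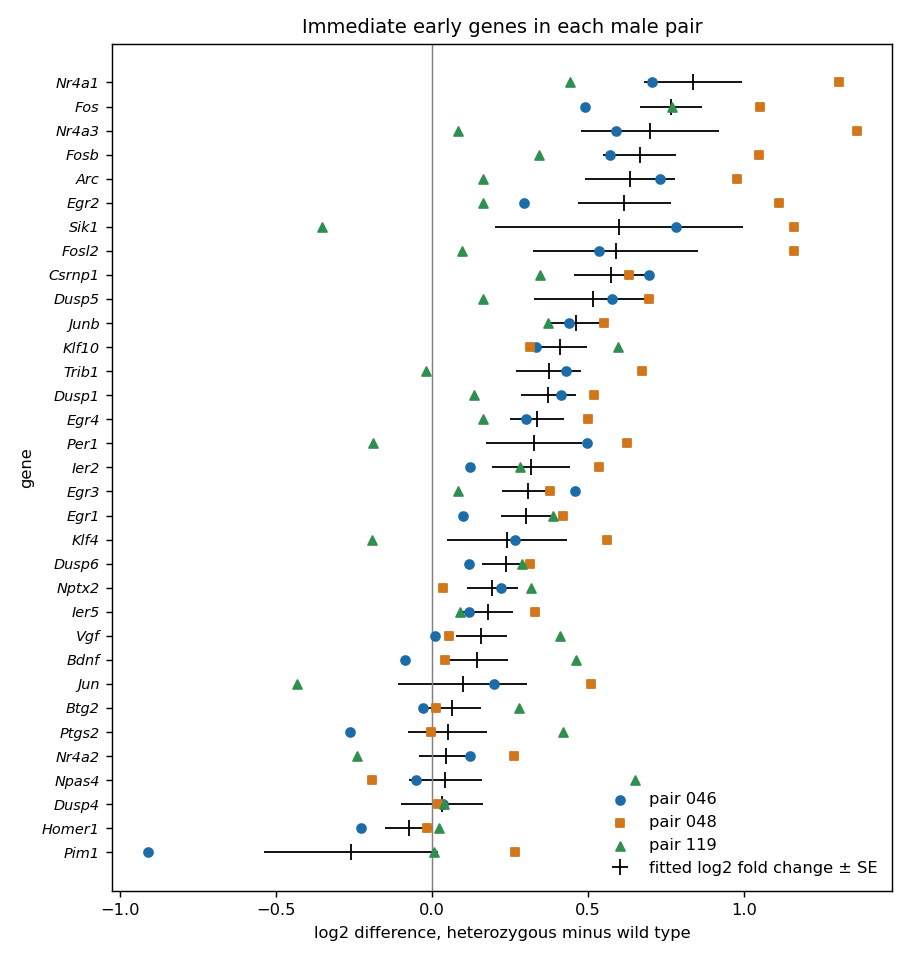
Log2 difference between the heterozygous and the wild-type male of each pair for the 33 immediate early genes (1 row per gene, coloured symbols), with the fitted log2 fold change and its SE in black. Of the 33 fitted values 31 lie to the right of 0, and pair 048 has the largest of the 3 differences in 22 genes.

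Gpnmb had the largest fold change of the called genes. It encodes a transmembrane glycoprotein of microglia and macrophages and is a target of the MiT/TFE factors that control lysosomal genes. Levels were low, at 2.51, 0.679 and 1.73 CPM in wild type and 4.49, 5.00 and 4.22 CPM in heterozygotes. Each heterozygote lay above each wild-type animal, and the 3 heterozygotes lay close together. Gpnmb rose by 1.46 in log2 units (SE 0.289), which passed with an adjusted p of 0.0405 by edgeR, and without pair 048 the value was 1.05 (adjusted p = 0.999 by edgeR), and without pair 119 it was 1.56 (adjusted p = 0.116 by edgeR). An exact permutation test gave p = 0.1 over the 20 splits and p = 0.25 over the 8 sign changes within pairs, the smallest value of each. Any gene whose groups do not overlap gets that 0.1, so it adds nothing to the separation. In the fit of all 14 animals the male value was 1.46 (adjusted p = 0.388 by edgeR). Of 42 lysosomal and MiT/TFE genes tested, 16 were positive, the median was -0.019 and Gpnmb was the only call. Ctss, a lysosomal protease abundant in microglia, had -0.21 and Wipi1, an autophagy gene, had 0.20, and neither passed.

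Aldh1a1, which encodes a retinaldehyde dehydrogenase that makes retinoic acid, fell in every pair by nearly the same amount. It stood at 31.0, 30.4 and 35.0 CPM in wild type and at 22.6, 22.0 and 24.6 CPM in heterozygotes. The groups did not overlap, and the pair differences were -0.46, -0.46 and -0.51. Aldh1a1 had a fitted value of -0.48 in log2 units (SE 0.098), with an adjusted p of 0.0405 by edgeR. Without pair 048 it was -0.48 and without pair 119 -0.46, with adjusted p by edgeR of 0.858 and 0.173, and in the fit of all 14 animals it was -0.48 (adjusted p = 0.0683). The retinoic acid pathway as a whole gave 8 positive values of 18 tested and a median of -0.047, with pair medians of 0.25, -0.19 and -0.16. Among its other members, the receptor genes Rarg and Rara had -0.34 and 0.24 and the carrier Fabp5 had -0.29, and none passed. Rarg lay lower in each heterozygote than in each wild-type animal (7.43 to 7.98 CPM against 4.48 to 7.29 CPM). Of the 18, 2 separated the groups downward (2.95% of all genes) and 1 upward (2.4%).

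Mitochondrial transcripts were lower in heterozygotes of pairs 048 and 119. mt-Nd6, a subunit of respiratory complex I, stood at 46.9, 84.1 and 212 CPM in wild type and at 39.5, 68.5 and 131 CPM in heterozygotes. The heterozygote was lower in each pair, although the range between prefixes was far wider than any pair difference. The fall was -0.43 in log2 units (SE 0.0867), which passed with an adjusted p of 0.0405 by edgeR. Without pair 119 the value was -0.27 and without pair 048 -0.49, with adjusted p by edgeR of 0.499 and 0.551, and in the fit of all 14 animals it was -0.43 (adjusted p = 0.861). mt-Nd6 lies on the opposite strand to the other protein-coding genes of the mitochondrial genome, and no source used here tells if strand entered the counting, so its reads may not be separable from those of its neighbours. Of 13 mitochondrial protein-coding genes, 6 had no read in any male; of the 7 tested, none was positive, and the median was -0.22, with pair medians of 0.078, -0.24 and -0.53. mt-Co1, a subunit of complex IV, had 2417, 3004 and 5099 CPM against 2227, 2679 and 3896 CPM, and mt-Nd2 had 376, 598 and 1214 CPM against 397, 483 and 841 CPM. Neither passed (-0.22 and -0.26, adjusted p of 0.811 and 0.84 by edgeR), although mt-Nd2 was called without pair 046 (-0.42).

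Nuclear genes of oxidative phosphorylation and ribosomal protein genes showed the same order of pairs. Of 75 nuclear respiratory genes 17 were positive (median -0.060, pair medians 0.081, -0.12 and -0.15), and of 64 ribosomal protein genes 10 were positive (median -0.093, pair medians 0.047, -0.090 and -0.25). No member of either list was called. Ndufa7, a complex I subunit, lay at 30.2 to 32.3 CPM in wild-type animals and 26.3 to 28.8 CPM in heterozygous ones (-0.20, adjusted p = 0.998 by edgeR). Rpl34 had -0.33 (adjusted p = 0.576 by edgeR), while Rps4y2 was higher in the heterozygote of every pair (0.51, adjusted p = 0.688 by edgeR). Single ribosomal protein genes are uncertain, because reads can come from pseudogenes of nearly the same sequence. In all 3 lists the median of pair 046 was above 0 and those of pairs 048 and 119 below it.

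Outside these groups, genes with the smallest p and 1 direction in all 3 pairs did not pass. Upward, Chrna4, a nicotinic acetylcholine receptor subunit, had 76.2, 59.1 and 55.2 CPM in wild type and 91.1, 82.6 and 72.5 CPM in heterozygotes (log2 fold change 0.38, adjusted p = 0.0576 by edgeR). Gfra2, the receptor of neurturin, stood at 102 to 112 CPM in wild-type animals and 125 to 136 CPM in heterozygous ones with no overlap (0.33, adjusted p = 0.152 by edgeR). Crb2, a cell polarity gene, had 10.5 to 12.1 CPM against 13.6 to 20.6 CPM (0.60), the unnamed gene model Gm16882 had 9.83 to 13.2 CPM against 15.96 to 17.4 CPM (0.58), and neither group pair overlapped. Pim3, a kinase gene, had 0.41 with overlap. Adjusted p by edgeR was 0.102 for Crb2, 0.0745 for Gm16882 and 0.112 for Pim3. Without pair 046, edgeR called Klf10 (0.45), Chrna4 (0.44) and Gm16882 (0.68), and without pair 119 it called Crb2 (0.81), Pim3 (0.54) and Dusp1 (0.47).

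Downward, several of the leading genes are markers of vessels and glia. Cldn5, the tight junction protein of the blood-brain barrier, had 25.5, 31.1 and 35.6 CPM in wild type and 22.9, 18.7 and 26.8 CPM in heterozygotes (-0.43, adjusted p = 0.212 by edgeR). Itm2a, another endothelial gene, had -0.34, and Aqp4, the water channel of astrocyte endfeet, had -0.26 (adjusted p of 0.33 and 0.472 by edgeR). Npy2r, a neuropeptide Y receptor, had -0.78 at low levels (3.22 to 9.69 CPM). Rapgef4, a cAMP-regulated exchange factor, Amz1, Cd302, the retinol dehydrogenase Rdh14 and the secreted protein Nov had -0.28, -0.48, -0.53, -0.36 and -0.27. Cd302, Rdh14 and Nov separated the groups without overlap, at 10.4 to 12.6 against 6.61 to 9.96 CPM, 21.7 to 28.7 against 17.7 to 21.3 CPM, and 148 to 160 against 115 to 147 CPM. None of these passed, with adjusted p by edgeR from 0.212 to 0.497, and without pair 046 edgeR called Cldn5 (-0.56) and Npy2r (-0.91).

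Markers of astrocytes, vessels and microglia had negative medians. Astrocyte markers were positive in 1 of 25 (median -0.10, pair medians 0.051, -0.12 and -0.22), endothelial and pericyte markers in 2 of 24 (median -0.16, pair medians -0.15, -0.41 and -0.042) and microglia markers in 5 of 22 (median -0.13, pair medians 0.011, -0.18 and -0.19), beside 49.2% of all genes. No member was called. In bulk tissue, fewer cells of a type and less RNA per cell cannot be told apart. Gfap, the astrocyte filament, lay at 133 to 157 CPM in wild-type animals and 119 to 128 CPM in heterozygous ones (-0.20, adjusted p = 0.936 by edgeR), and Tyrobp, a microglial signalling adaptor, at 5.39 to 6.01 against 3.86 to 4.07 CPM (-0.52, adjusted p = 0.936). Both separated the groups. Downward separation held for 1 of the 25 astrocyte, 2 of the 24 vessel and 2 of the 22 microglia markers, beside 2.95% of all genes. No marker of these lists separated upward (2.4% of all genes). Abcb1a, the drug efflux pump of brain endothelium, and Vtn, a pericyte gene, had -0.30 and -0.23 with overlap.

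The other tissue markers were mixed. Oligodendrocyte and myelin markers gave 13 positive values among 24 (median 0.00038), and Mbp, which encodes myelin basic protein, had -0.25 (adjusted p = 0.593 by edgeR). Meningeal and fibroblast markers were positive in 8 of 20 (median -0.045), and 14 of the 20 lay lower in both animals of prefix 119 than in the other 4. Hemoglobin and other blood genes were positive in 0 of 5 tested (median -0.34, pair medians 0.10, -0.65 and -0.43), with a summed level of 122 and 78.1 CPM in the wild-type and the heterozygous animal of pair 048. The summed level of the vessel markers was 799 and 669 CPM in the same pair, and the part of either in the results was not tested. Striatal markers (17 tested, 2 positive, median -0.17) had pair medians of 0.56, -1.14 and -0.25. Adora2a, an adenosine receptor of striatal projection neurons, had 22.2, 53.3 and 21.0 CPM in wild type and 48.4, 13.9 and 15.3 CPM in heterozygotes, so the order of genotypes was opposite in pairs 046 and 048. Upper-layer cortical markers were positive in 8 of 14 (median 0.026), with pair medians of -0.088, 0.10 and -0.070. Their sign also differed between pairs 046 and 048, over a smaller range. Deep-layer markers were positive in 14 of 19 (median 0.047), with pair medians of 0.074, 0.079 and 0.024.

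**Figure D3:**
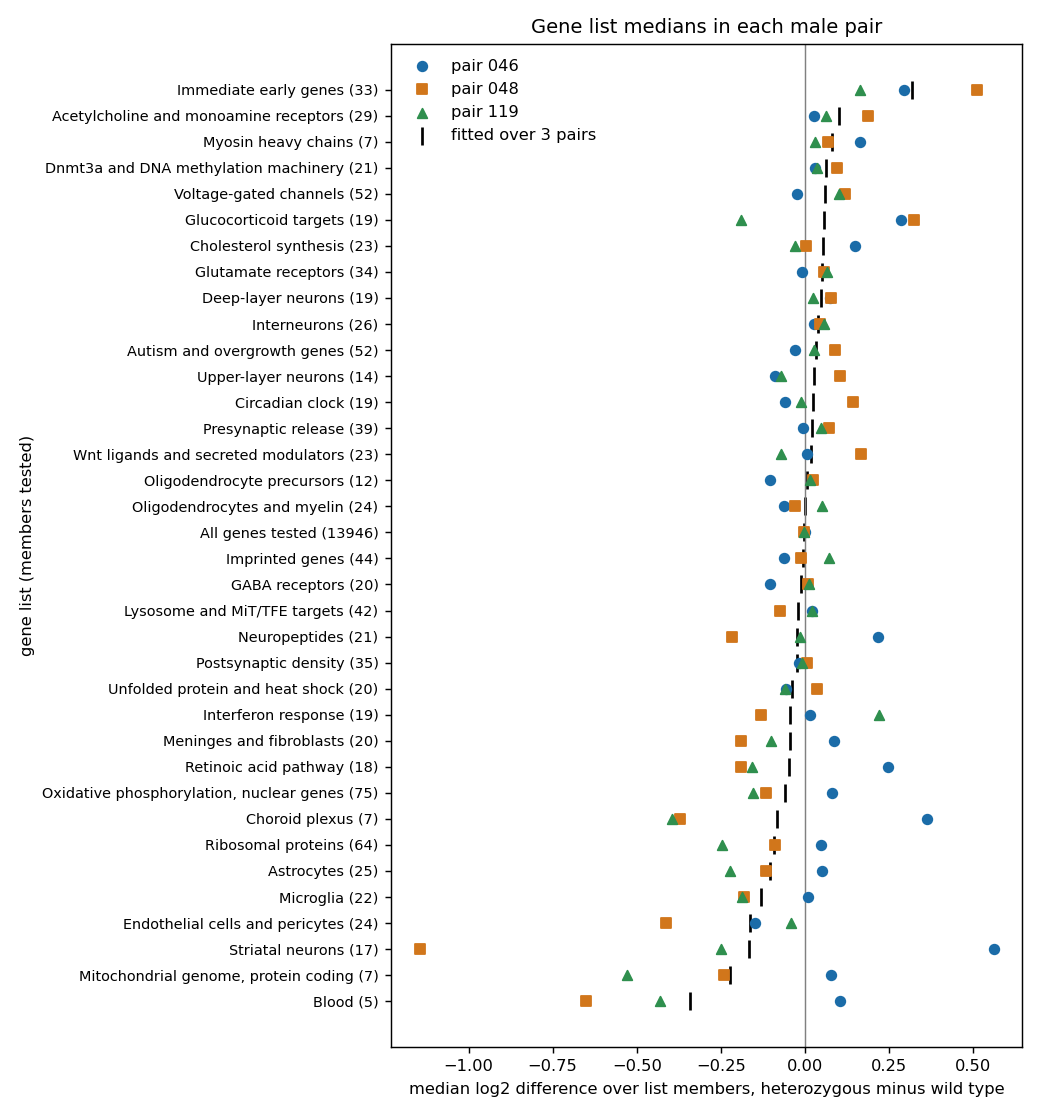
Median log2 difference between heterozygous and wild-type males over the members of each gene list, in each pair (coloured symbols) and from the fit over 3 pairs (black bars), with the number of members tested in parentheses. Immediate early genes lie furthest right (0.32) and have all 3 pairs above 0, and striatal markers spread most, from -1.14 to 0.56.

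Among neuronal signalling genes, acetylcholine and monoamine receptors were positive in 21 of 29 (median 0.10, pair medians 0.027, 0.19 and 0.062). Voltage-gated channels were positive in 38 of 52 (median 0.059, pair medians -0.022, 0.12 and 0.10) and glutamate receptors in 24 of 34 (median 0.050, pair medians -0.0085, 0.056 and 0.067), so in both of these lists pair 046 was below 0. None was called. Cacna1g, a T-type calcium channel, separated the groups at 92.1 to 104 CPM in wild-type animals and 115 to 118 CPM in heterozygous ones (0.28, adjusted p = 0.351 by edgeR). Htr2a, a serotonin receptor, had 0.27 from pairs 046 and 119 alone (0.42, -0.05 and 0.42), and Chrnb2, the usual partner of Chrna4, had 0.20. Interneuron markers (17 of 26 positive, median 0.038), presynaptic release genes (24 of 39, median 0.020), GABA receptors (9 of 20, median -0.010) and postsynaptic density genes (10 of 35, median -0.025) had medians closer to 0, and none of their members was called. Unc13c, a vesicle priming gene, had 65.3 CPM in the wild-type animal of prefix 119 and 38.2 to 47.2 CPM in the other 5 (-0.35, adjusted p = 0.497 by edgeR), and was called without pair 046 (-0.49).

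Smaller groups held single genes that separated the genotypes, as 746 of all 13946 genes (5.35%) did. The myosin heavy chain Myh7b separated the groups at 2.22 to 2.42 CPM in wild-type animals and 3.72 to 4.77 CPM in heterozygous ones (0.88, adjusted p = 0.325 by edgeR), and 6 of 7 myosin genes were positive with a median of 0.079. Among 23 Wnt ligands and secreted modulators, of which 15 were positive (median 0.018), Wnt10a lay at 8.40 to 10.3 CPM against 10.9 to 14.7 CPM and Dkk3 at 348 to 409 CPM against 434 to 481 CPM, with log2 fold changes of 0.44 and 0.25 (adjusted p = 0.593 by edgeR for each). Wnt9a had 0.35 with overlap. Circadian clock genes were positive in 13 of 19 (median 0.023), with Bhlhe40 and Nr1d1, both transcriptional repressors, at 0.26 and 0.20. Glucocorticoid targets gave pair medians of 0.28, 0.32 and -0.19, so here pair 119 went the other way. Per1, a clock gene that is also induced by activity and by glucocorticoids, showed this order with 100, 89.7 and 67.9 CPM in wild type and 142, 139 and 59.5 CPM in heterozygotes. None of these genes passed with all 3 pairs, and Per1 was called without pair 119 (0.56).

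Across the 13946 genes, the log2 differences of pairs 046 and 048 correlated at 0.031, those of 046 and 119 at -0.052 and those of 048 and 119 at 0.048 (Pearson's r across genes, which are not independent replicates). Among genes with a mean count of at least 50, pair 119 departed most from the mean of the other 2 pairs downward in Plin4 and Wdfy1 and upward in Chac1 and Slc7a3. Wdfy1, which encodes an endosomal adaptor protein, had 8.28, 10.2 and 12.98 CPM in wild type and 34.2, 30.9 and 10.3 CPM in heterozygotes. The heterozygotes of prefixes 046 and 048 thus stood far above the other 4 males, and the fitted value of 1.16 did not pass (SE 0.674, adjusted p = 0.998 by edgeR). Without pair 119 it was 1.83 (adjusted p = 9.23e-10 by edgeR). Chac1 and Slc7a3, both targets of the amino acid response, were lower in the heterozygotes of pairs 046 and 048 (-0.57 and -0.82, -0.44 and -0.61) and higher in that of pair 119 (1.15 and 0.93).

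The females offered a comparison with animals that did not enter these values. In a fit of the females alone with the prefix as a block, edgeR called 5 of 13814 genes (0.0362%): Aldh1a1, Dnmt3a, Ndn, Itih3 and Slc25a18. Dnmt3a had -0.57 in females and -0.57 in males, and Aldh1a1 had -0.60 and -0.48. Gpnmb had 1.28 in females and 1.46 in males. Of the 10 genes with the smallest p in females, all 10 had the same sign in males, where 59.3% of 13727 genes did. Of the 10, 4 kept the female sign in all 3 pairs. In 24.7% of all genes the 3 pairs shared a sign, whether or not females had it, so this is not a like share. Ndn, an imprinted gene, had 0.38 in females and 0.11 in males, and the astrocyte genes Itih3 and Slc25a18 had -0.63 and -0.49 in females against -0.08 and -0.20 in males. Sox21, Necab2, Baiap3 and Ranbp3l had -0.51, -0.49, -1.33 and -0.80 in females against -0.06, -0.07, -0.46 and -0.53 in males.

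Immediate early genes were also set beside those of females. Their median was 0.10 in females, with 24 of 33 positive (49.8% of all genes in females), and 0.32 in males. Fos had 0.14 in females and Fosb 0.07, Junb 0.15 and Csrnp1 -0.03. The difference between the sexes in a fit of all 14 animals was 0.62 for Fos and 0.60 for Csrnp1, with adjusted p = 0.992 by edgeR for both. None of 13815 genes passed that test (0%), and 466 (3.37%) had an unadjusted p under 0.05, the smallest belonging to Pim3, Cecr2 and Csrnp1 (0.51, 0.73 and 0.60) among genes more positive in males and to Enpp6, Tmod1 and Rgs20 (-0.75, -0.36 and -0.43) among genes more positive in females. DESeq2 with the same terms called none either, with 182 genes at an unadjusted p under 0.05. Klf10 had 0.52 in females and 0.41 in males.

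**Figure D4:**
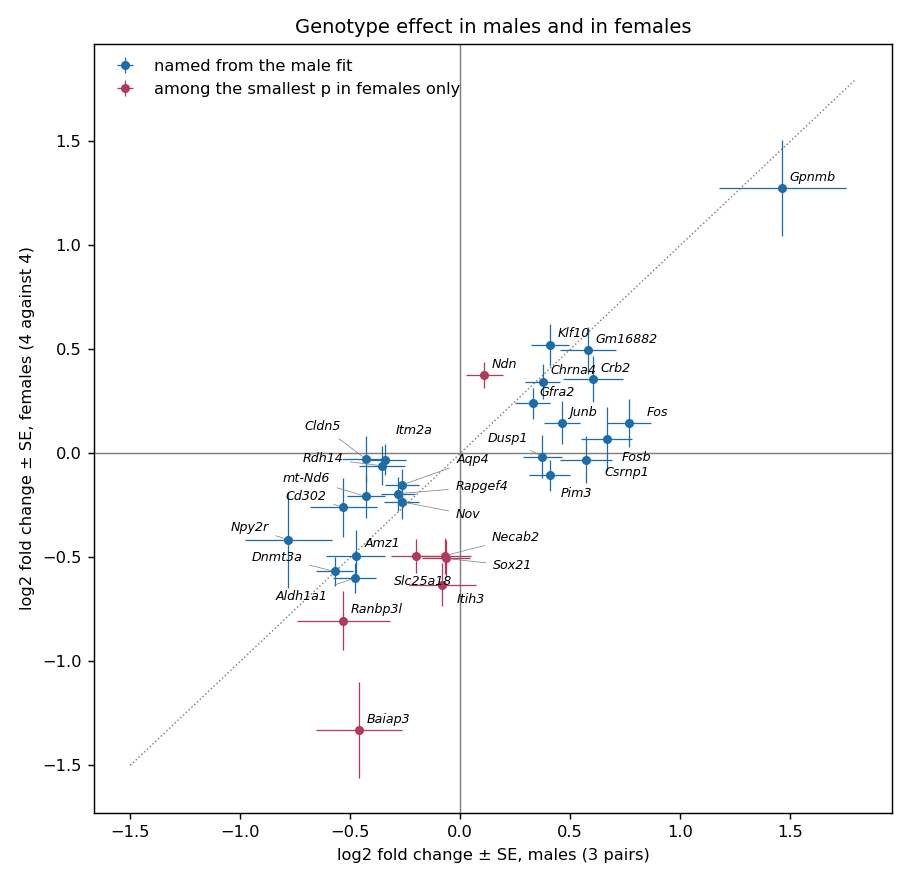
Log2 fold change with SE in males (horizontal, 3 pairs) and in females (vertical, 4 against 4) for the genes named from either sex, with the line of equal values dotted. Dnmt3a, Aldh1a1 and Gpnmb lie near that line, and Fos, Fosb and Csrnp1 lie right of it, near 0 in females (0.14, 0.07 and -0.03).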

How the data were processed

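Total RNA from 6 male and 8 female cortices was sequenced with a strand-preserving kit, per the labels' protocols. The authors deposited raw read counts per gene. Trim Galore, Bowtie, STAR, bedtools and the mm9 build are named per the submitters' processing notes. No source used here tells if the counting took strand into account. The members and gene lists were chosen with earlier results of these data known. Male totals were 10219549 to 13739591 counts.

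Genes were kept by edgeR's filterByExpr (13946 of 34193, holding 99.91% of male counts), scaled by TMM and tested with edgeR 4.0.16 (R 4.3.3, limma 3.58.1), a robust quasi-likelihood fit with genotype and the title prefix as a block. P-values were adjusted by Benjamini-Hochberg at 0.05. Pair differences are log2 CPM with a prior count of 2. The prefix was taken as a pair by the rule that selected these animals. Correlations of deviations from the group means were 0.234, 0.115 and 0.382 within prefixes and -0.295 to 0.0692 between them. The lowest value within a prefix thus lay near the highest between prefixes, and these values are not independent of each other. Chi-square per degree of freedom between any 2 male libraries was 4.98 to 26.5, so none was a duplicate.

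Genes named were Dnmt3a, the called genes, per direction the 12 with the smallest p and 1 sign in all pairs (mean count of at least 20), up to 4 per list by p, the 3 per direction with the smallest p for the male-female difference, the 10 with the smallest p in females, and those in which pair 119 departed most from the other pairs, of which 4 are described. Gene lengths came from the annotation supplied and were found for 13698 genes (98.2%). Alternatives were no block, a term for prefix 119, all 14 animals, RLE scaling, DESeq2 1.42.0, 2 other filters and leaving out each pair. The scripts were tested on simulated data. Some items are not reported here.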

Additional observations from a re-analysis of the deposited data

How the results depend on the processing

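The count of 8 called genes depended on the fit. Without the replicate block edgeR called 0 (219 at an unadjusted p under 0.05), with a term for prefix 119 in place of the 3 prefixes 3, in all 14 animals 1, with RLE scaling 10, with a mean count of at least 50 10, without a filter 31, and DESeq2 called 3. Leaving out 1 pair gave from 1 gene (without pair 048) to 48 (without pair 046), and 28 without pair 119. Dnmt3a was -0.58 without the block (adjusted p = 0.99991 by edgeR), and it was called under each other alternative (-0.70 to -0.47 with a pair left out). The test between the sexes called 0 genes, 8 without a filter and 0 to 1 with a male pair left out (Tfrc, without pair 119). Of the recomputed list medians, 342 changed by less than the SD of the pair medians of their list, whatever their sign. By at least that SD, 5 changed without a change of sign and 3 with one. Reversals occurred without the block for Npas4 (-0.031) and in DESeq2 for Plin4 (0.58). With a pair left out, values ran from -0.12 to 0.21 for Npas4, -0.56 to 1.26 for Plin4, -0.71 to 0.29 for Chac1, -0.54 to 0.25 for Slc7a3, -0.12 to 0.0064 for Homer1, -0.52 to 0.15 for Pim1, -1.24 to 0.41 for Adora2a, -0.30 to 0.093 for Necab2, -0.30 to 0.17 for Itih3, -0.34 to 0.0077 for Slc25a18 and -7.0e-05 to 0.020 for Tmod1. The same range was -0.058 to 0.018 for the median of oligodendrocyte markers, -0.041 to 0.0015 for postsynaptic genes and -0.047 to 0.092 for cholesterol synthesis. The cause of these changes was not tested. With 3 pairs, a gene at a few CPM such as Gpnmb rests on few reads in each library.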

Other observations

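Further gene groups that bear on a DNA methyltransferase were described in males. EdgeR called no imprinted gene and no gene of the autism and overgrowth list. Imprinted genes were positive in 21 of 44 tested, with a median log2 fold change of -0.007 and pair medians of -0.061, -0.011 and 0.071. Rasgrf1, a paternally expressed exchange factor gene, stood at 283, 261 and 223 CPM in wild type and 314, 313 and 258 CPM in heterozygotes (0.21). Igf2r, a maternally expressed receptor gene, had 0.18, while Nnat and Sgce, both paternally expressed, had -0.24 and -0.28. Sgce alone of these 4 separated the groups, at 15.0 to 18.4 CPM against 13.2 to 14.02 CPM. Their adjusted p by edgeR ran from 0.847 to 0.998. Genes of autism and overgrowth syndromes were positive in 37 of 52 (49.2% of all genes), with a median of 0.034 and pair medians of -0.028, 0.090 and 0.028, with Setd2, a histone methyltransferase, at 0.16 and Shank3, a postsynaptic scaffold, at -0.15. Genes over 100 kb had a median of 0.014 over 2179 genes (1212 positive), with pair medians of -0.035, 0.062 and 0.017. Of these 2179 genes, 2 were called, both lower and the targeted Dnmt3a among them, beside 0.0215% of all genes called lower. The 11519 shorter genes had a median of -0.006.

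The remaining groups gave medians of either sign. Cholesterol synthesis genes were positive in 16 of 23 (median 0.054), neuropeptides in 9 of 21 (-0.022), oligodendrocyte precursor markers in 7 of 12 (0.007), choroid plexus markers in 3 of 7 (-0.083), interferon response genes in 6 of 19 (-0.044) and unfolded protein and heat shock genes in 8 of 20 (-0.040). Adcyap1, which encodes the neuropeptide PACAP, lay between 18.8 and 20.2 CPM in wild-type animals and between 20.5 and 29.3 CPM in heterozygous ones (0.28, adjusted p = 0.936 by edgeR). H2-D1, a class I histocompatibility gene, had 0.27 with pair differences of 0.60, -0.02 and 0.22 (adjusted p = 0.974 by edgeR).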
